A study of Mus musculus with 32 samples.

Results

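Sorted microglia of the Sall1-CreER line were compared with sorted microglia of the Cx3cr1-CreER line, each given as 4 mice. The comparison used 16 of the 32 libraries of the series, 8 from each line. They were chosen as all libraries made from sorted cells, and the counts of the 2 sorted libraries of a mouse were added, which gave 8 sums, 1 per mouse. The sums were used because the 8 sorted Cx3cr1 libraries carry contradictory labels: the title of each names one library type (sorted cells, or sorted cells followed by anti-HA precipitation) and its description names the other. A sum of both is the same whichever label is right, but the share of each library type in it is not.

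The study set CreER mouse lines side by side as tools for work on brain macrophages, and each brain was divided into 4 samples: sorted cells, sorted cells with anti-HA precipitation, and direct anti-HA or IgG precipitation from homogenate. All mice were of the C57BL/6 strain, with the genotype Cx3cr1-CreER:RPL22-HA (mice 1, 2, 3 and 4) or Sall1-CreER:RPL22-HA (mice 7, 9, 17 and 21). All of them, in both lines, had received 5 mg of tamoxifen by gavage on 4 alternate days between 4 and 6 weeks of age. No group without tamoxifen, Cre or the tagged allele was part of the comparison, so a difference is one between the lines, and the driver allele cannot be told apart from any other difference between the 2 sets of mice.

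Microglia are the resident macrophages of the brain tissue. They are distinct from the border-associated macrophages of the perivascular spaces, meninges and choroid plexus, which carry the mannose receptor MRC1 (CD206). CreER drivers are inserted at a gene whose promoter sets where the recombinase is made. The fractalkine receptor CX3CR1 is made by microglia and other mononuclear phagocytes, whereas the transcription factor SALL1, which is known to maintain microglial identity, is made in the brain by microglia and some non-immune cells. Both drivers are known as insertions that take the place of coding sequence of their own gene, so that a carrier may have fewer working copies of it. The labels do not give the number of copies in these mice. RPL22-HA, or RiboTag, is an allele of the ribosomal protein gene Rpl22 that gains a haemagglutinin tag after recombination.

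Gene counts per sum ranged from 1732758 to 2867701 in the Cx3cr1 line and from 1272265 to 2433699 in the Sall1 line, and single sorted libraries held 249881 to 1808789. The library titled as sorted cells without precipitation made up 34.6% to 56.9% of a Cx3cr1 sum and 59.1% to 80.4% of a Sall1 sum. By the titles this share did not overlap between the lines, so line and library mix were then partly confounded. By the descriptions the same share in the Cx3cr1 line was 43.1% to 65.4%, which overlaps the Sall1 range. Levels are given as CPM, the counts of a gene scaled by the total gene counts of its sum and multiplied by 1000000. Rank correlations between sums over the same tested genes, whose lengths are shared, were 0.950 to 0.977 within a line and 0.936 to 0.968 between lines. The 36 genes of a list for homeostatic microglia took 13.4% to 14.5% of all counts in the Cx3cr1 sums and 12.2% to 14.0% in the Sall1 sums. C1qa, a complement subunit made by microglia, was at 12234 ± 425 CPM (SD, n = 4) and 12604 ± 787 CPM in the Cx3cr1 and Sall1 lines. The defining markers of the labelled cell type were thus abundant in both lines.

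Of the 24411 genes in the table, 9966 passed the low-count filter and were tested, and 266 were called at an adjusted p under 0.05. That is 2.67% of the tested genes, with 161 higher in the Sall1 line (1.62%) and 105 lower (1.05%). Folds above 2 were found for 88 genes called higher and 32 called lower, folds above 4 for 26 and 8, and folds above 8 for 7 and 1. The median log2 fold change of all tested genes was -0.0050, and the median size of the change was 0.89 among called genes and 0.15 among all. The 4 sums of one line lay entirely above the 4 of the other for 256 of the 266 called genes, against 9.2% of all tested genes. When all 16 libraries were compared singly, 89 called genes did not overlap between lines, against 1% of all tested genes. The p-values set the difference between the lines against the spread between these mice within a line.

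**Figure D1:**
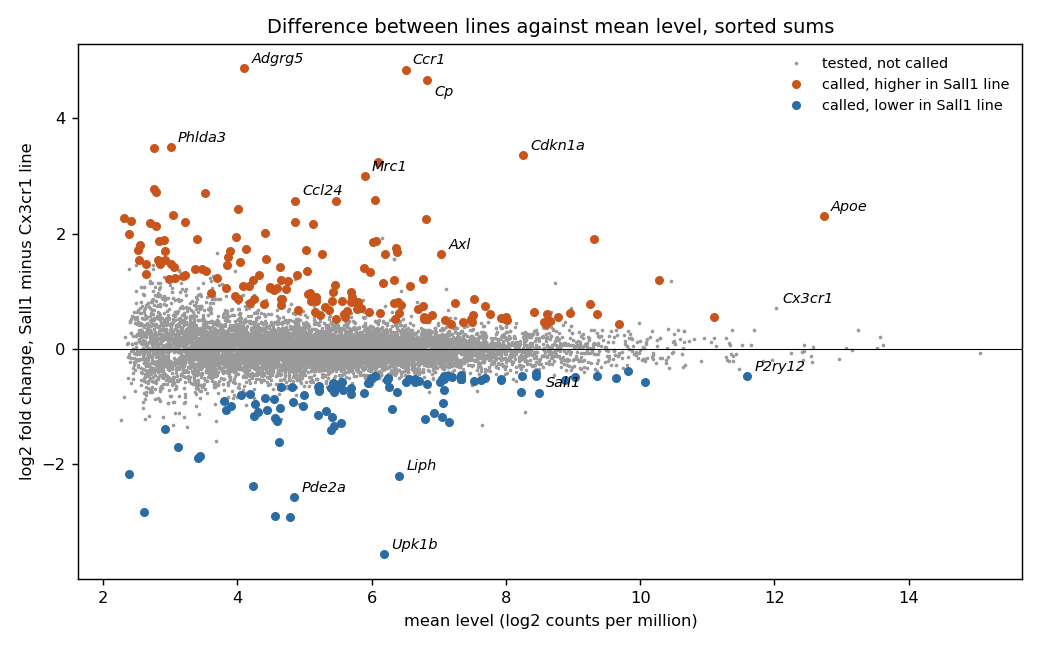
Each dot is 1 of 9966 tested genes, placed by its mean level (x axis, log2 CPM) and by the log2 fold change of the Sall1 over the Cx3cr1 line (y axis). Orange and blue dots are the 161 genes called higher and the 105 called lower. Adgrg5, Ccr1 and Cp lie at the top and Upk1b at the bottom.

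The driver genes and the tagged gene were examined first. Sall1 was at 448, 497, 401 and 453 CPM in Cx3cr1 mice 1 to 4 and at 262, 282, 233 and 271 CPM in Sall1 mice 7, 9, 17 and 21. The groups did not overlap, in the sums or in the 16 libraries, and Sall1 was 1.70-fold lower in its own driver line (log2 fold change -0.76 ± 0.10 SE, adjusted p = 3.22e-04, edgeR's quasi-likelihood test). Its call held in all 22 alternative settings, with log2 fold changes from -0.81 to -0.70.

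Cx3cr1 was at 3767, 2429, 2454 and 3949 CPM in its own driver line and at 4812, 4254, 5910 and 5326 CPM in the Sall1 line. Here too the sums of the 2 lines did not overlap, with a 1.63-fold difference, but the gene missed the threshold (0.70 ± 0.18, adjusted p = 0.0847). Leaving out Cx3cr1 mouse 1 or mouse 4 brought it past the threshold (0.81, adjusted p = 0.0443, and 0.83, adjusted p = 0.0327), as did DESeq2 (adjusted p = 0.00497). So did limma-voom over 16 libraries by title (0.00159) or description (0.0109), equal weights in limma-trend (0.0132) and length offsets (0.0417). Cx3cr1 was also called in libraries titled as sorted cells (6.78e-06), libraries described as precipitated (5.36e-04) and libraries thinned to equal counts (0.0315). The remaining settings did not call it. Rpl22 was at 197 to 250 CPM in the Cx3cr1 line and 264 to 324 CPM in the Sall1 line, without overlap and without a call (0.39 ± 0.11, adjusted p = 0.0897). It was called in libraries titled as sorted cells (adjusted p = 0.0238), limma-voom by description (0.0491) and libraries thinned to equal counts (0.0307). Counts run over all exons of a gene, so they do not show which allele the reads came from. Of the other members of the Sall family, Sall3 was at 166 ± 13.8 and 188 ± 27.0 CPM (adjusted p = 0.56), Sall2 was at 11 ± 1.4 and 9.27 ± 2.56 CPM (adjusted p = 0.763), and Sall4 had no count in any sum.

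The comparison was proposed with 5 genes already known to differ in these data, namely Ccr1, Cp, Cdkn1a, Mrc1 and Upk1b. Their values are a description, and their tests are no independent support. Ccr1 encodes a receptor for inflammatory chemokines such as CCL3 and CCL5 and lies at chr9:123876959-123883525 (mm9, minus strand). It was at 6.20, 8.66, 6.28 and 3.58 CPM in the 4 Cx3cr1 mice and at 203, 168, 164 and 171 CPM in the 4 Sall1 mice. Every Sall1 value was far above every Cx3cr1 value, a 28.7-fold difference (log2 fold change 4.84 ± 0.18, adjusted p = 1.08e-10). Across the 16 libraries taken singly the ranges were 1.57 to 9.44 CPM and 131 to 211 CPM, so the gap was present in each library type, whichever label is used.

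Cp encodes ceruloplasmin, the copper-carrying ferroxidase that helps to export iron from cells, and lies at chr3:19857054-19892998 (mm9, plus strand). Its levels were 13.6, 5.77, 9.07 and 4.60 CPM in the Cx3cr1 line and 251, 186, 215 and 226 CPM in the Sall1 line. The groups were again fully apart, by 25.5-fold (4.67 ± 0.23, adjusted p = 2.89e-08), and single libraries ranged from 4.43 to 14.9 CPM and from 165 to 285 CPM.

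Cdkn1a encodes p21, an inhibitor of cyclin-dependent kinases that p53 induces, and lies at chr17:29227924-29237667 (mm9, plus strand). It was at 76.7, 36.9, 67.7 and 33.2 CPM in the Cx3cr1 mice and at 511, 683, 476 and 549 CPM in the Sall1 mice. Sall1 mouse 9 was highest and no sums overlapped, with a 10.3-fold difference (3.36 ± 0.29, adjusted p = 4.63e-04).

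Mrc1 encodes the mannose receptor and lies at chr2:14151041-14253650 (mm9, plus strand). Its levels were 10.1, 4.62, 18.8 and 18.9 CPM in the Cx3cr1 line and 113, 72.4, 118 and 124 CPM in the Sall1 line. The lowest Sall1 sum, of mouse 9, was still above the highest Cx3cr1 sum, and the difference was 7.96-fold (2.99 ± 0.33, adjusted p = 0.00127).

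Upk1b encodes uroplakin 1b, a tetraspanin known from the surface plaques of the urothelium, and lies at chr16:38773297-38800316 (mm9, minus strand). It went the other way, from 134, 134, 107 and 141 CPM in the Cx3cr1 line to 12.4, 15.1, 6.99 and 7.86 CPM in the Sall1 line. It was 11.9-fold lower in the Sall1 line (-3.57 ± 0.20, adjusted p = 1.26e-08), with single libraries at 86.9 to 165 CPM and 4.08 to 15.4 CPM. All 5 genes kept their call and direction in each of the 22 alternative settings.

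**Figure D2:**
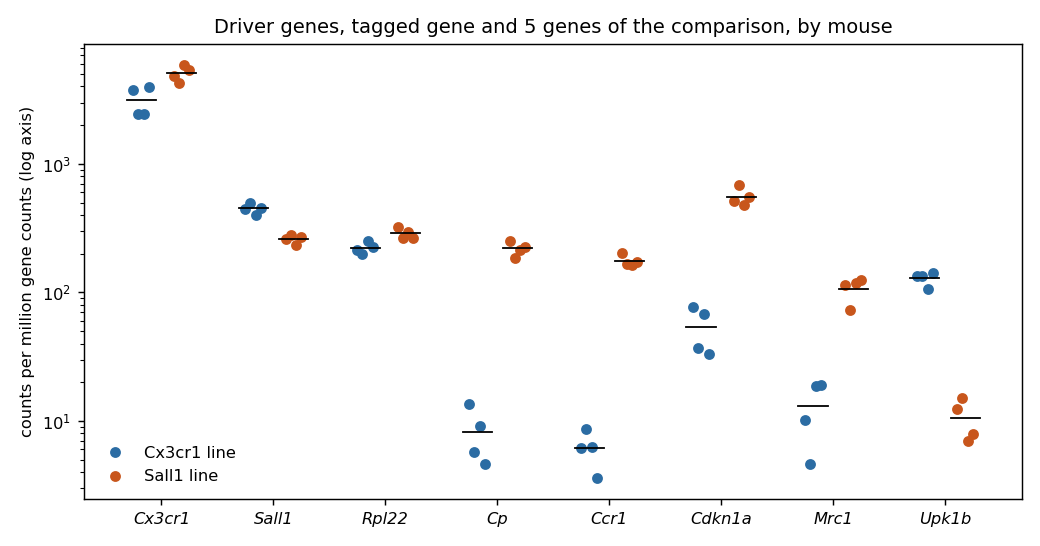
Levels of 8 genes in CPM on a log axis, with 1 point per mouse (sum of its 2 sorted libraries) and a black line at the mean of the 4 mice of a line. Points of the 2 lines do not overlap for any of the 8 genes, and the gap is widest for Ccr1 and Cp.

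Upstream sequence of Ccr1, Mrc1 and Cdkn1a is shown because these windows hold short words that macrophage or stress regulators are known to read. The windows of Cp, which was higher as well, do not. Each is the 250 bases before a start annotated by RefSeq (build GRCm38.p6, a different build from the mm9 table), written 5′ to 3′ on the strand of the gene. Capitals mark 2 words, searched on both strands: GAGGAA, the core read by the macrophage factor PU.1, and ACATGT, which holds the CATG core of p53 half-sites and was chosen after the sequences had been seen. The intervals are chr9:123968693-123968942 (minus strand) for Ccr1, chr2:14229164-14229413 (plus strand) for Mrc1 and chr17:29090729-29090978 (plus strand) for the first of 2 listed starts of Cdkn1a.
Ccr1: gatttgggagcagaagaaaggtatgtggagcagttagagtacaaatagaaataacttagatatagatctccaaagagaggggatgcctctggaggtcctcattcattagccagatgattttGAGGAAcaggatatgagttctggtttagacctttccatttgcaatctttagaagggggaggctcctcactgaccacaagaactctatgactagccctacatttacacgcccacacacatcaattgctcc
Mrc1: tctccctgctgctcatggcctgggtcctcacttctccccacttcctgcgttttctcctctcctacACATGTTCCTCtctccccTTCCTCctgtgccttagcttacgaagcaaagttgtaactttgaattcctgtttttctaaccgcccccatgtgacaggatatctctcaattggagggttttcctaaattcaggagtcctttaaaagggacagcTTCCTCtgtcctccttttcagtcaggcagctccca
Cdkn1a: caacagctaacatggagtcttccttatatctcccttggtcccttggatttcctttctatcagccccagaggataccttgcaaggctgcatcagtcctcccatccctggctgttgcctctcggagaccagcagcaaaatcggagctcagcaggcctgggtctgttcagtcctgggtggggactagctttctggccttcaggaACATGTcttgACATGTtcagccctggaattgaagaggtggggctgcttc

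Ccr1 held GAGGAA 1 time in this window, Mrc1 held it 3 times, all on the opposite strand, and ACATGT 1 time, overlapping the first of them by 1 base, and Cdkn1a held ACATGT 2 times, 4 bases apart. The 2 listed windows of Cp and the second of Cdkn1a held neither word. Among the 10012 listed starts of tested genes, 22.7% had GAGGAA and 2.01% had ACATGT in the same 250 bases. One more word, AATATT, of the AT-rich kind that SALL proteins are known to bind, was in none of the 6 windows of Ccr1, Cp, Cdkn1a and Mrc1, against 2.83% of those starts. Of the 5 genes, 4 had an entry in the table of promoters, and Upk1b was not matched. A match of letters is a description and shows no binding.

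Beside these 5, the genes of at least moderate level with the largest differences were taken by rule, 12 in each direction. The largest fold change was that of Adgrg5, an adhesion G protein-coupled receptor. It was at 1.55, 0.577, 1.05 and 1.02 CPM in the Cx3cr1 mice and at 34.2, 30.7, 32.5 and 36.9 CPM in the Sall1 mice, a 29.3-fold difference without overlap (4.87 ± 0.27, adjusted p = 1.26e-08). Each Cx3cr1 value was below 4.83 CPM, the level of the low-count filter, so Adgrg5 passed only through its Sall1 sums. Its fold thus rests on Cx3cr1 levels near 0. Apoe, the lipid carrier apolipoprotein E, was the most abundant. Its levels were 1988, 1698, 3534 and 1966 CPM in the Cx3cr1 line and 11327, 9088, 12625 and 11843 CPM in the Sall1 line. Cx3cr1 mouse 3 was the highest of its group and still below every Sall1 mouse, and the difference was 4.93-fold (2.30 ± 0.25, adjusted p = 0.00356).

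Cybb encodes the catalytic subunit of the phagocyte NADPH oxidase. It was at 27.1, 38.7, 56.8 and 32.7 CPM against 180, 183, 192 and 183 CPM, without overlap (2.25 ± 0.18, adjusted p = 3.07e-06). Cacna1a, the pore subunit of P/Q-type calcium channels, had a log2 fold change of 2.56 ± 0.17 and Ehd1, which acts in endocytic recycling, one of 2.43 ± 0.31. Ccl24, an eosinophil-attracting chemokine, differed by 2.57 ± 0.19, from 7.50 to 9.21 CPM in the Cx3cr1 line to 41.2 to 62.1 CPM in the Sall1 line. Tmem52, a transmembrane protein gene, and the clone-named gene 1810011O10Rik completed the 12, with 2.58 ± 0.22 and 3.25 ± 0.24.

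On the lower side, the largest difference after Upk1b was that of Angptl7, a secreted angiopoietin-like protein (-2.92 ± 0.57, adjusted p = 0.0424). Cx3cr1 mouse 3, at 13.3 CPM, was close to the Sall1 sums of 5.34 to 7.07 CPM, whereas the other Cx3cr1 mice were at 48.6 to 65.8 CPM. The call of Angptl7 was lost in 11 of 22 settings, with adjusted p up to 0.16, and those settings included leaving out Cx3cr1 mouse 1 (adjusted p = 0.0992), 2 (0.0903) or 4 (0.109) or Sall1 mouse 7 (0.13), 9 (0.155), 17 (0.16) or 21 (0.127).

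Liph encodes a lipase that makes lysophosphatidic acid. It was at 160, 147, 118 and 119 CPM in the Cx3cr1 line and 24.9, 34.4, 32.0 and 22.8 CPM in the Sall1 line, without overlap (-2.20 ± 0.16, adjusted p = 3.86e-07). Pde2a, a phosphodiesterase that degrades cyclic nucleotides, was at 40.1 to 59.4 CPM against 5.50 to 10.1 CPM (-2.58 ± 0.22). Klk8, the secreted protease neuropsin, was at 180 to 219 CPM against 54.2 to 110 CPM (-1.28 ± 0.17).

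Myo18b, an unconventional myosin gene, differed by -2.90 ± 0.33 and the RNA-binding protein gene Khdrbs3 by -2.38 ± 0.29. Tmem8c, or myomaker, which fuses myoblasts, differed by -1.62 ± 0.27, and Rapsn, which clusters acetylcholine receptors at the neuromuscular junction, by -1.29 ± 0.16. The remaining 3 were the lysosomal sulfatase gene Arsg (-1.41 ± 0.18), the actin cross-linker gene Actn1 (-1.34 ± 0.17) and the endosomal adaptor gene Tom1l1 (-1.25 ± 0.19).

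**Figure D3:**
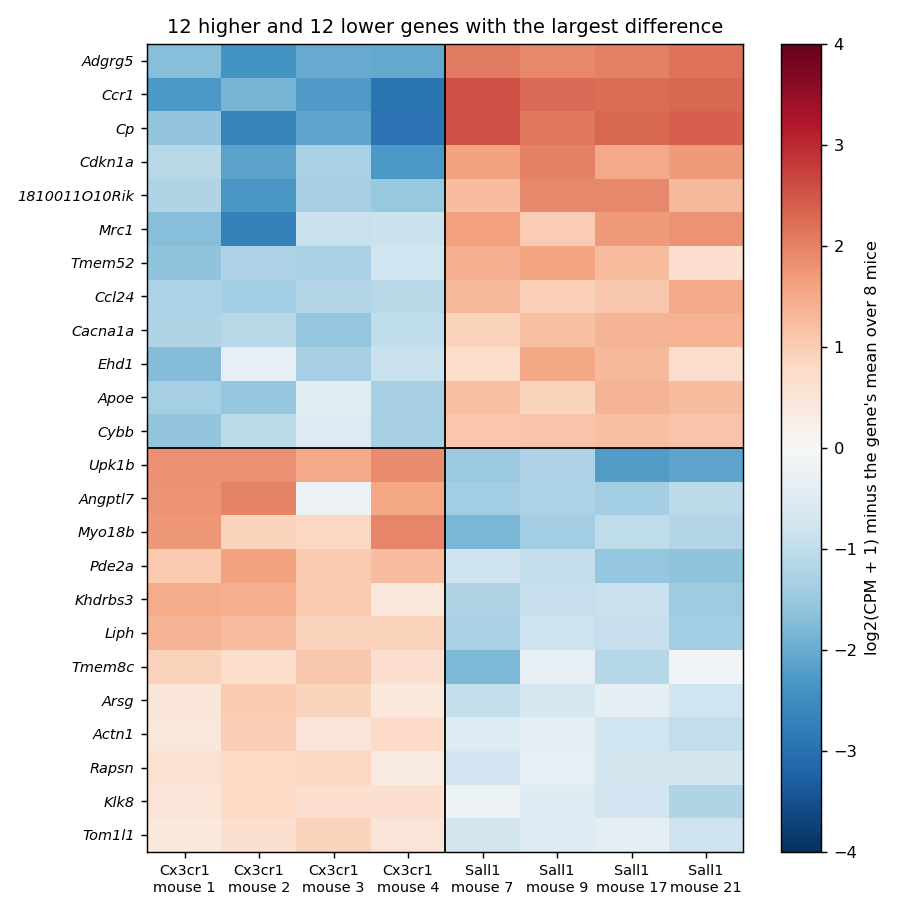
Colour gives log2(CPM + 1) of a gene in a mouse minus the mean of that gene over the 8 mice. The 12 genes with the largest difference in each direction are in rows and the mice in columns, with the Cx3cr1 line on the left. Angptl7 is the row in which 1 Cx3cr1 mouse, mouse 3, is close to the Sall1 mice.

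Of 36 tested homeostatic microglial genes, 1 was called higher and 2 lower. That is 8.33% of them, beside 2.67% of all tested genes, and their median log2 fold change was -0.13. P2ry12, the purinergic receptor by which microglia sense nucleotides, was at 3512, 3536, 3468 and 3839 CPM in the Cx3cr1 line and 2665, 2600, 2551 and 2359 CPM in the Sall1 line, without overlap (-0.48 ± 0.08, adjusted p = 0.00413). Fcrls, an Fc receptor-like scavenger receptor, was higher in the Sall1 line (0.55 ± 0.09, adjusted p = 0.00207), with -0.02 when only libraries titled as sorted cells were used.

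Itgam, the integrin subunit CD11b that is often used to gate microglia, was 1.30-fold lower (-0.38 ± 0.10, adjusted p = 0.0482). Its call held in 10 of 22 settings and was lost without Cx3cr1 mouse 1 (adjusted p = 0.187), 2 (0.086) or 4 (0.129) or Sall1 mouse 7 (0.117), 9 (0.127), 17 (0.115) or 21 (0.0768). Tmem119 was at 3181 ± 258 and 2473 ± 215 CPM (adjusted p = 0.0556), and Csf1r, the receptor that microglia need to survive, at 8456 ± 936 and 7394 ± 613 CPM (adjusted p = 0.473). edgeR's quasi-likelihood test called none of 12 tested microglial and macrophage transcription factors in either direction, 2 were at an unadjusted p under 0.05, and DESeq2 called 0. Spi1, which encodes PU.1, was at 512 ± 36.1 and 512 ± 31.3 CPM (log2 fold change 0.02 ± 0.10).

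Most tested genes of border-associated macrophages were higher in the Sall1 line. Of 20 genes on the list, 8 passed the low-count filter, and 7 of these were called higher and 0 lower, with a median log2 fold change of 1.70 beside -0.0050 for all tested genes. Of all tested genes, 1.62% were called higher. Without Mrc1, which was given with the comparison, 6 of 7 were called higher and the median was 1.46. The filter level was 4.83 CPM, which is 10 counts at the median depth. Mrc1, Folr2, Pf4 and Ms4a7 reached it in only some or none of the Cx3cr1 sums. These counts and medians thus describe the genes that passed and not the whole list. Besides Mrc1 and Ccl24, the called genes included Stab1, a scavenger receptor (0.56 ± 0.11, 356 ± 35.4 and 518 ± 53.3 CPM), and Tgfbi, a matrix protein (0.81 ± 0.15, 60.8 ± 10.7 and 105 ± 16.2 CPM). The others were the folate receptor gene Folr2 (2.21 ± 0.48), the platelet factor gene Pf4 (1.93 ± 0.41) and Ms4a7 (1.46 ± 0.37), which were all below 50 CPM in every sum. Dab2, an endocytic adaptor, did not pass (1.10 ± 0.31, adjusted p = 0.0782). Without Cx3cr1 mouse 1 the number called higher was 4.

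The summed share of the 20 border macrophage genes was 0.0393% to 0.0518% of counts in the Cx3cr1 sums and 0.0697% to 0.103% in the Sall1 sums. Stab1 was the largest part of this share in both lines, and Mrc1, given with the comparison, is also in it. The share thus mostly reflects single genes and not the list as a whole. Cd163, a scavenger receptor that marks these cells, was at 0.775, 1.15, 2.09 and 4.09 CPM in the Cx3cr1 line and 22.5, 0.458, 8.63 and 8.65 CPM in the Sall1 line. Sall1 mouse 9 was thus below the Cx3cr1 range for Cd163, while its Mrc1 level of 72.4 CPM was above all Cx3cr1 mice. Lyve1, the hyaluronan receptor of perivascular macrophages, had no count in Sall1 mice 9 and 17 and was at 6.99 and 5.50 CPM in mice 7 and 21. F13a1 was at 9.32, 0.458, 1.64 and 13.4 CPM in the 4 Sall1 mice and at 0.577 to 3.58 CPM in the Cx3cr1 line, so its groups overlapped. The levels of these low genes varied more between Sall1 mice than that of Mrc1 did. In bulk RNA, fewer cells of a type and less RNA per cell cannot be told apart.

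Of 14 monocyte genes 4 were tested and 3 called higher, with a median log2 fold change of 1.79, and 1.62% of all tested genes were called higher. None of the 4 reached the filter level in every Cx3cr1 sum, so they passed the filter wholly or partly through their Sall1 sums, and the count and median do not describe the whole list. Without the filter the median was 1.21. They were Ms4a4c (2.20 ± 0.26), the hyaluronan receptor gene Cd44 (1.70 ± 0.37) and the integrin gene Itga4 (1.89 ± 0.40). Cd44 lost its call without Cx3cr1 mouse 1 (adjusted p = 0.0624) or 4 (0.0516) or Sall1 mouse 7 (0.0709), and Itga4 lost it without Sall1 mouse 17 (0.0597). Ly6c2, which marks classical monocytes, had 0 counts in the Cx3cr1 sums and 1 count in the Sall1 sums. Ccr2, the receptor by which monocytes leave the marrow, was at 6.59 ± 2.15 and 15.6 ± 7.41 CPM (adjusted p = 0.0804). The summed share of the 14 genes was 0.00214% to 0.00411% in the Cx3cr1 sums and 0.00843% to 0.0116% in the Sall1 sums.

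Genes linked to disease-associated microglia moved in both directions. Of 17 tested, 4 were called higher and 1 lower, with a median log2 fold change of 0.15. That is 29.4% of them, beside 2.67% of all tested genes. Besides Apoe, the higher ones were the lipoprotein lipase gene Lpl, the receptor tyrosine kinase gene Axl and the cystatin gene Cst7. Lpl was at 28.3, 33.5, 34.5 and 18.4 CPM against 103, 127, 111 and 75.5 CPM (1.88 ± 0.20, adjusted p = 6.46e-05). Axl, which binds dying cells through GAS6, was at 54.6, 60.0, 92.8 and 45.0 CPM against 201, 197, 202 and 188 CPM (1.65 ± 0.18, adjusted p = 9.25e-05). The sums of the 2 lines did not overlap for either gene.

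Cst7 differed by 0.98 ± 0.20 (34.0 ± 12.4 and 67.9 ± 6.87 CPM, adjusted p = 0.0182). The lysosomal protease gene Ctsl was lower (-0.58 ± 0.11, adjusted p = 0.00737). The tested members without a call included the dectin-1 gene Clec7a (0.85 ± 0.27), the integrin gene Itgax (-0.39 ± 0.18), Cd9 (-0.13 ± 0.11) and the galectin gene Lgals3 (0.15 ± 0.30). Gpnmb and Spp1, also on the list, were too low to test.

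Among 13 tested targets of p53, 3 were called higher (1.62% of all tested genes were) and 0 lower, with a median log2 fold change of 0.22. Of the 3, Cdkn1a is one of the genes given with the comparison, and Phlda3 passed the low-count filter only through its Sall1 sums, so the count supports nothing about the list. The median was 0.37 without Sall1 mouse 21, 0.42 in DESeq2 and 0.49 without the filter. It was 0.58 in libraries titled as sorted cells and -0.061 in those titled as precipitated. These 2 values depend on the contradictory titles, and libraries described as sorted cells gave 0.32. Phlda3, a repressor of Akt signalling, was at 1.16, 0, 1.05 and 2.56 CPM in the Cx3cr1 line and 13.2, 14.7, 10.7 and 18.9 CPM in the Sall1 line, without overlap (3.50 ± 0.43, adjusted p = 1.30e-04). Bax, a promoter of apoptosis, was at 145 ± 8.32 and 217 ± 27.7 CPM (0.59 ± 0.11, adjusted p = 0.00848). Mdm2, the ubiquitin ligase that restrains p53, was at 105 ± 10.3 and 119 ± 5.19 CPM (adjusted p = 0.489). Ccng1 (0.52 ± 0.14) and the apoptosis gene Bbc3 (0.78 ± 0.23) did not pass, at adjusted p of 0.0695 and 0.0932. Of the other tested inhibitors of cyclin-dependent kinases, Cdkn1b differed by 0.04 ± 0.14 and Cdkn1c by -0.37 ± 0.26, and neither was called.

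Some cell cycle genes were higher beside this inhibitor. Of 18 tested, 6 were called higher (33.3%, beside 1.62% of all tested genes) and 0 lower, with a median log2 fold change of 0.73. Of the 6, Ube2c, Birc5 and Ccnb2 passed the low-count filter only through their Sall1 sums, so the count and median do not describe the whole list. Top2a, the topoisomerase of dividing cells, was at 10.1, 5.77, 5.93 and 9.72 CPM in the Cx3cr1 line and 24.9, 21.1, 28.8 and 29.9 CPM in the Sall1 line, without overlap (1.73 ± 0.23, adjusted p = 2.90e-04). Cdk1, the mitotic kinase, was at 6.59 to 8.66 CPM and 17.7 to 22.9 CPM (1.45 ± 0.22, adjusted p = 7.60e-04).

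The ubiquitin ligase subunit gene Ube2c (2.14 ± 0.38), Birc5 (1.47 ± 0.34), which encodes survivin, and the cyclin genes Ccnb2 (1.54 ± 0.38) and Ccnd1 (0.75 ± 0.14) were the other 4. Ccnd1 was the only one of the 6 above 100 CPM. The proliferation marker Mki67 was at 8.01 ± 4.79 and 16.9 ± 8.80 CPM, with overlapping groups (adjusted p = 0.308). The replication genes Mcm3 (0.08 ± 0.14) and Pcna (-0.14 ± 0.15) were not called. With only the libraries titled as sorted cells 3 members were called higher, and with only the libraries described so 2 were.

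**Figure D4:**
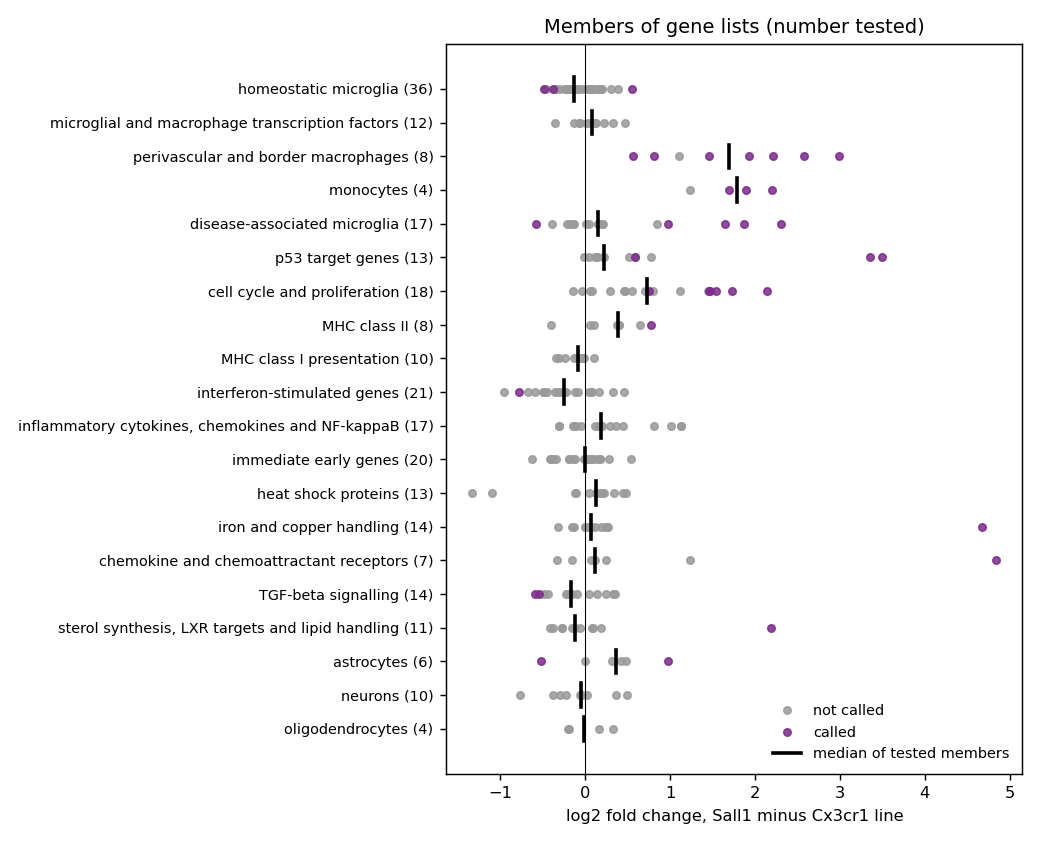
Each point is a tested member of the gene list named on the y axis, placed by its log2 fold change (Sall1 minus Cx3cr1 line). Purple points are called, grey points are not, the black bar is the median, and the number in brackets is the number of members tested. The bars of border macrophage and monocyte genes are at 1.70 and 1.79, and that of homeostatic microglia is at -0.13.

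In the functional families of Cp, Ccr1, Mrc1 and Upk1b, 1 of the 37 other tested genes was called (2.7%), a share like the 2.67% of all tested genes. Of 14 tested genes of iron and copper handling, Cp alone was called, and the median log2 fold change was 0.06. The iron exporter gene Slc40a1, whose ferroportin works with ferroxidases, was at 137 ± 20.1 and 136 ± 19.7 CPM (-0.01 ± 0.13), and the ferritin heavy chain gene Fth1 at 2040 ± 500 and 2307 ± 245 CPM. Of 7 tested chemokine and chemoattractant receptors, Ccr1 alone was called. C3ar1, the receptor for the complement fragment C3a, was at 304 ± 24.6 and 358 ± 21.7 CPM (0.25 ± 0.10). Of 13 tested uroplakins and tetraspanins, Upk1b alone was called. Of 7 tested myeloid lectins, Mrc1 was called higher and Clec4a3 lower (-0.66 ± 0.14, adjusted p = 0.016), the latter without a call when Cx3cr1 mouse 3 (adjusted p = 0.0523) or 4 (0.0567) or Sall1 mouse 17 (0.0631) was left out.

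Of 39 tested genes of antigen presentation or of the interferon response, 2 were called (5.13%, beside 2.67% of all tested genes). H2-DMa, a chaperone subunit for class II peptide loading, was the only one of 8 tested MHC class II genes called (0.78 ± 0.13, adjusted p = 0.00209). It was at 417, 513, 487 and 386 CPM in the Cx3cr1 line and 776, 913, 734 and 626 CPM in the Sall1 line, without overlap. The class II chain genes H2-Aa (0.37 ± 0.49) and H2-Ab1 (0.64 ± 0.42) spread widely between mice of one line. edgeR's quasi-likelihood test called none of 10 tested MHC class I genes, 2 were at an unadjusted p under 0.05, and DESeq2 called 0.

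Of 21 tested interferon-stimulated genes, 1 was called lower and 0 higher, with a median log2 fold change of -0.25. This was Isg15, a ubiquitin-like modifier (-0.78 ± 0.19, adjusted p = 0.0384), and its call was lost without Cx3cr1 mouse 1 (adjusted p = 0.0931), 2 (0.0526) or 3 (0.105) or Sall1 mouse 7 (0.108), 17 (0.0608) or 21 (0.102). Of 14 tested genes of TGF-beta signalling, on which microglia depend, 2 were called lower (14.3%, beside 1.05% of all tested genes). They were the co-receptor gene Eng (-0.54 ± 0.12) and the corepressor gene Tgif1 (-0.59 ± 0.14). Eng had no call without Cx3cr1 mouse 1 (adjusted p = 0.0588) or 4 (0.0543) or Sall1 mouse 17 (0.0976) or 21 (0.067). Tgif1 had none without Cx3cr1 mouse 1 (0.0624), 2 (0.0612), 3 (0.0646) or 4 (0.0526) or Sall1 mouse 7 (0.0853) or 17 (0.123).

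Genes that respond to cell isolation were tested as a measure of handling. edgeR's quasi-likelihood test called none of 20 tested immediate early genes, 17 inflammatory genes or 13 heat shock genes, and 0, 3 and 1 of them were at an unadjusted p under 0.05. DESeq2 called 1 inflammatory gene and none of the others. The list medians were 0.00, 0.18 and 0.12. Values of single mice spread widely. Jun, an immediate early transcription factor gene, was at 4480, 1610, 2439 and 2117 CPM in the Cx3cr1 line and 1143, 2765, 3260 and 2051 CPM in the Sall1 line. Its groups overlapped (-0.19 ± 0.45, adjusted p = 0.934).

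Markers of further cell types were examined as well. edgeR's quasi-likelihood test and DESeq2 called 0 tested markers of oligodendrocytes (4 tested), neurons (10), red blood cells (6), T, B and NK cells (2) and fibroblasts (1). At an unadjusted p under 0.05 were 1 of the 2 lymphocyte genes, 1 fibroblast gene and 0 of the rest, and no gene of the lists for neutrophils, oligodendrocyte precursors or mural cells passed the filter. Ttr, the transthyretin gene of the choroid plexus, was abundant, at 503 to 1222 CPM in the Cx3cr1 line and 1213 to 2905 CPM in the Sall1 line, with overlap and without a call (1.17 ± 0.36, adjusted p = 0.217). In libraries titled as sorted cells Ttr was called higher in the Sall1 line (2.62, adjusted p = 0.011). The 8 ependymal and choroid plexus genes together took 0.0511% to 0.123% and 0.123% to 0.293% of counts. Of them 2 were tested, and both were higher in the Sall1 line at an unadjusted p under 0.05. Neither was called by edgeR's quasi-likelihood test or DESeq2 in the sums. Of 6 tested astrocyte genes, Clu, which encodes clusterin, was called higher (0.97 ± 0.22) and the glutamate transporter gene Slc1a3 lower (-0.52 ± 0.11). The call of Clu was lost in 12 of 22 settings, among them leaving out any Cx3cr1 mouse or Sall1 mouse 17 or 21 (adjusted p from 0.0516 to 0.112). That of Slc1a3 was lost in 5, among them without Cx3cr1 mouse 4 or Sall1 mouse 7, 9 or 17 (0.0502 to 0.0643). Of 4 tested endothelial genes, Pltp was called higher (1.50 ± 0.22) and Ly6a lower (-0.99 ± 0.24), the latter without a call in 9 settings, among them without Cx3cr1 mouse 3 or 4 or any Sall1 mouse (0.0868 to 0.12). Fscn1, which bundles actin, was the only tested dendritic cell gene of 7 and was called lower (-0.48 ± 0.12). Its call was lost in 11 settings, among them without Cx3cr1 mouse 1, 2 or 4 or Sall1 mouse 7, 17 or 21 (0.0614 to 0.16), and its direction turned in libraries titled as precipitated (0.23). The share called was 33.3% of the tested astrocyte genes and 50% of the endothelial genes, beside 2.67% of all tested genes. The part of these cell types in the differences between lines was not tested.

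Positions were examined because the 2 lines differ in which locus carries the driver. In the mm9 coordinates of the table, 7 of 117 tested genes within 10 Mb of Sall1 on chromosome 8 were called (5.98%), against 10 of 432 on the rest of that chromosome (2.31%). Within 10 Mb of Cx3cr1 on chromosome 9, 5 of 78 were called (6.41%), against 10 of 461 on the rest (2.17%). On all other chromosomes 233 of 8876 were called (2.63%). These shares are a description without a test, and neighbouring genes are not independent. The genes called near Cx3cr1 include Ccr1, which was given with the comparison. Those called near Sall1 include Adgrg5, which passed the low-count filter only through its Sall1 sums.

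Near Sall1 the called genes included Adgrg5, 5.90 Mb away, Cacna1a, 4.51 Mb away, Ccdc102a (1.56 ± 0.22), the peptidoglycan sensor gene Nod2 (1.54 ± 0.33), the metallothionein gene Mt2 (1.06 ± 0.25) and Adgrg1 (-0.50 ± 0.12). Adgrg5 lies between Ccdc102a and Adgrg1, and all 3 were called, 2 of them higher and Adgrg1, which encodes GPR56, lower. Near Cx3cr1 the called genes were Ccr1, 3.91 Mb away, Lyzl4 (2.71 ± 0.32), Gadl1 (1.99 ± 0.40), Gpd1l (-0.60 ± 0.13) and Xylb (-0.96 ± 0.22). Of the 3 largest differences of the comparison, those of Adgrg5 and Ccr1 lay within 10 Mb of a driver locus, and that of Cp, on chromosome 3, did not. Ccr1 and Cp were given with the comparison, and Adgrg5 passed the low-count filter only through its Sall1 sums. Their positions are a description and support no link to the driver loci.

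**Figure D5:**
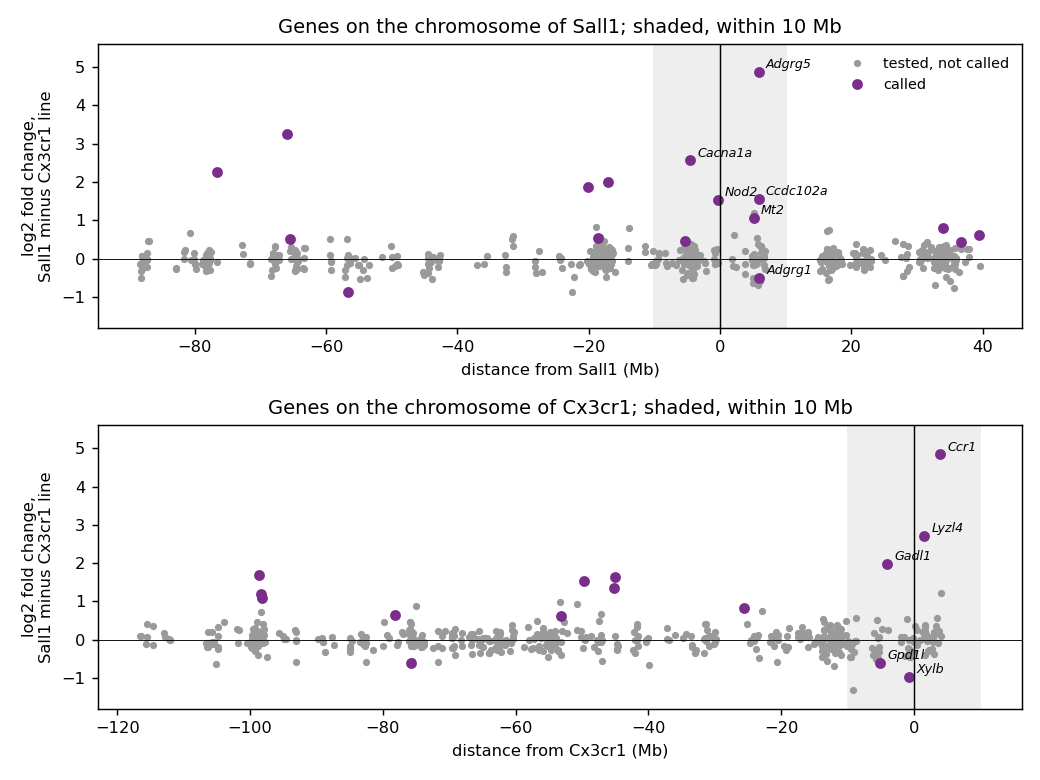
Log2 fold change (Sall1 minus Cx3cr1 line) of the tested genes on the chromosome of Sall1 (top) and of Cx3cr1 (bottom), against the distance from the driver gene in Mb. Purple points are called, and shading marks 10 Mb to each side, with names for called genes there whose log2 fold change is 0.5 or more in size. In the shaded parts Adgrg5 and Ccr1 stand far above all other genes.

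The homogenate libraries of the same mice, which did not enter the sums, give a second view of these genes. They are made from whole brain, where microglia are a small part, so microglial RNA is diluted, and no test was made. By their deposited totals, the anti-HA libraries of the Cx3cr1 line were shallower than those of the Sall1 line. Low CPM values in them thus rest on few counts. Upk1b was at 20.9 to 47.0 CPM in the 4 anti-HA libraries of the Cx3cr1 line and at 0 to 1.32 CPM in those of the Sall1 line. Cdkn1a was at 27.5 to 48.9 CPM and 101 to 204 CPM, with IgG libraries at 48.9 to 71.2 CPM and 61.9 to 79.5 CPM. For these 2 genes the order of the lines was thus the same as in sorted cells.

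Ccr1 was at 0 to 3.06 CPM and 0 to 0.528 CPM in the anti-HA libraries, at or near 0 in both lines. Cp was at 0 to 5.22 CPM and 0.528 to 0.991 CPM in them. Mrc1 was at 13.9 to 33.6 CPM in the Cx3cr1 line and 0 to 1.58 CPM in the Sall1 line, the reverse of the order in sorted cells. Apoe, which astrocytes make in quantity, was at 13215 to 14902 CPM and 12895 to 16762 CPM, with overlap. The anti-HA libraries depend on which cells recombined in each line, and their differences cannot be told apart from that.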

How the data were processed

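Polyadenylated RNA of sorted microglia was analysed as sums of the 2 sorted libraries of each mouse. The authors deposited raw, unscaled read counts over the exons of 24411 genes. Tools named per the submitters' processing notes are HISAT 0.1.5, bcl2fastq and HOMER, with build mm9. Strand setting and handling of multiply mapped reads are not given in the sources used here, so genes with near-identical copies or overlapping neighbours are uncertain.

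Sums were tested with edgeR 4.0.16 (R 4.3.3): robust quasi-likelihood fit of line, TMM scaling (factors 0.985 to 1.02), default low-count filter (minimum count 10) and Benjamini-Hochberg adjustment over 9966 genes. Genes under 0.05 were called. All adjusted p-values of single genes come from this test or from the same test in a named setting, except where DESeq2 or limma is named. The fitting steps were tested on simulated counts with the same dispersion for every gene and no mix of library types, a simpler setting than these sums. Folds are fitted values, and levels are CPM of the sums.

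Named genes were Cx3cr1, Sall1, Rpl22, the 5 genes given with the comparison, the 12 largest changes per direction (called, mean log2 CPM of at least 4, sums without overlap), and per list up to 3 called members that moved with its median and 1 that moved against it, by adjusted p. Where a list had no call, its 2 most abundant tested members were taken. Further list members named with values were chosen after their values had been seen. The members and lists were chosen with earlier results of these data known. Counts of any 2 sorted libraries of a group differed by more than counting noise (chi-square over degrees of freedom from 2.08 to 9.36), so none was a duplicate. Alternatives used other scalings, filters, tools, library subsets (limma 3.58.1, DESeq2 1.42.0) and left out each mouse in turn.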

Additional observations from a re-analysis of the deposited data

Results flagged for a closer look

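Each of 156 groups of 4 sums was checked for 1 mouse far from the other 3, by the gap to its nearest neighbour as a share of the range, and 11 groups were marked. Chance marks about 1 in 20 groups. Among genes named above, Apoe was at 3534 CPM in Cx3cr1 mouse 3 and at 1698 to 1988 CPM in the other Cx3cr1 mice, and Rapsn was at 31.6 CPM in Sall1 mouse 9 and at 23.3 to 23.6 CPM in the other Sall1 mice. In both cases the mouse that stood apart was still on its own side of the other line.

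Among shares of all counts taken by a gene list in the Sall1 line, mouse 9 was low for MHC class II (0.197%, others 0.248% to 0.255%). Sall1 mouse 21 was low for MHC class I presentation (0.803%, others 0.893% to 0.911%) and high for neurons (0.0234%, others 0.0117% to 0.0137%). Sall1 mouse 17 was low for sterol and lipid handling (0.132%, others 0.145% to 0.147%). In the Cx3cr1 line, mouse 2 was high for TGF-beta signalling (0.477%, others 0.399% to 0.402%). Cx3cr1 mouse 3 was high for interferon-stimulated genes (0.163%, others 0.104% to 0.111%), and mouse 4 was high for neutrophil genes (0.00159%, others 0.000105% to 0.000346%).

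The share of a sum that came from the library titled as sorted cells was 56.9% in Cx3cr1 mouse 2, against 34.6% to 36.9% in the other Cx3cr1 mice. In Sall1 mouse 21 it was 80.4%, against 59.1% to 59.7%.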

How the results depend on the processing

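Under median-ratio scaling, no scaling, DESeq2 (275 called), equal weights, length offsets and limma-voom over 16 libraries by title (285), the number called stayed within 1.5 times of 266. Without the low-count filter 396 genes were called, 174 of them lower. With 1 mouse left out, 150 to 248 genes were called, 104 to 159 higher and 45 to 102 lower. The lowest counts came without Sall1 mouse 17 (150), Cx3cr1 mouse 1 (156) and Sall1 mouse 7 (172), and the genes called lower fell to 66 and 64 without Cx3cr1 mice 2 and 4 and to 62 without Sall1 mouse 21. Libraries titled as sorted cells gave 2078 calls (1035 higher, 1043 lower, 49.8% higher against 60.5% in the sums) and those titled as precipitated 919 (488 and 431). Grouped by description, the same 2 comparisons gave 138 (93 and 45) and 94 (66 and 28). The cause was not tested. Among alternatives chosen after seeing the data, limma-voom by description called 387, 176 of them lower, the sums without the smaller library of Sall1 mouse 21 gave 234, and thinning both libraries of a mouse to equal counts gave 231. None of the 266 genes was called in the opposite direction in any of these settings.

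Of 51 called genes named by rule, 29 were called in every one of 22 settings in which they could be tested. Among named genes, called values changed sign only within library types by title. In libraries titled as sorted cells, Fcrls was at -0.0214 and Hspa8 at -0.60, against 0.55 and 0.12 in the sums. In libraries titled as precipitated, Fscn1 was at 0.23, Ctsl at 0.0810, H2-D1 at 0.52 and Eng at 0.20, against -0.48, -0.58, -0.31 and -0.54. No paired analysis was possible because the mice of the 2 lines are different animals and share no numbers. Depth limits genes of few counts: 14445 genes were not tested.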

Other observations

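Pltp, a phospholipid transfer protein on the endothelial list, was at 6.98, 7.50, 11.2 and 7.16 CPM in the Cx3cr1 line and 26.4, 19.2, 25.1 and 23.6 CPM in the Sall1 line (1.50 ± 0.22, adjusted p = 7.66e-04, edgeR's quasi-likelihood test), without overlap. Ch25h, the cholesterol 25-hydroxylase, was the only one of 11 tested genes of sterol and lipid handling called (9.09%, beside 2.67% of all tested genes). It was at 1.94 ± 1.49 and 9.29 ± 3.03 CPM (2.19 ± 0.46, adjusted p = 0.0162). No Cx3cr1 sum of Ch25h reached the filter level, so it was tested only through its Sall1 sums. Its call was lost without Cx3cr1 mouse 1 (adjusted p = 0.0558) or Sall1 mouse 9 (0.054). Abca1 and Abcg1, cholesterol exporters that liver X receptors induce, differed by 0.08 ± 0.17 and -0.05 ± 0.12.

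The cell cycle inhibitor gene Cdkn2a, too low to test, had 5 counts over the 4 Cx3cr1 sums and 32 over the 4 Sall1 sums, at 0.388 to 0.697 CPM and 3.29 to 5.50 CPM. The growth factor gene Igf1, also too low to test, was at 0.886 CPM in the Cx3cr1 line and 6.75 CPM in the Sall1 line as means of 4 mice. The rows of Hbb-b1 and Hbb-bs held the same values in every sum, from 1.16 to 78.8 CPM in the Cx3cr1 line and 1.37 to 235 CPM in the Sall1 line.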
